A study of Mus musculus with 18 samples.

Results

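RNA of 3-month-old Ppt1 knockout mice was compared with that of wild-type mice of the same age, the youngest of the 3 ages profiled. Ppt1 encodes palmitoyl-protein thioesterase 1, an enzyme of the lysosome that takes palmitate off proteins as they are broken down. In people its loss causes the infantile form of neuronal ceroid lipofuscinosis, a storage disease in which glia react and neurons are later lost. The 3-month arrays were chosen by the genotype and age in their labels, which gave 3 knockout and 3 wild-type arrays, 6 of the 18 arrays of the series. The other arrays came from mice of 5 and 8 months, and each group of genotype and age again had 3. At 3 months each genotype had 1 male and 2 females, and values per array below run male, female, female. The labels name brain and cochlea as source and give no strain and no form of the knockout allele. Nothing in them states that a group's arrays come from different mice, so the p-values reflect only how far these samples vary, and that variation may be technical.

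Microglia are the resident macrophages of the brain, and astrocytes are the glia that support neurons and vessels. Both change their transcripts when neurons are stressed: microglia take on a phagocytic and lysosomal set of genes known from many disease models, and astrocytes raise intermediate filaments such as Gfap. Interferons act through a receptor and STAT and IRF proteins, and the IRF proteins bind short repeats of GAAA in the promoters of target genes.

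The 3-month arrays were even in quality. The mean correlation of a 3-month array with the other arrays of its group lay between 0.982 and 0.983 in the knockout and between 0.980 and 0.981 in the wild type. The ratio of 5-prime to 3-prime signal of actin, a sign of intact RNA, was 0.507 to 0.542 in the knockout and 0.480 to 0.547 in the wild type, and the ranges overlapped. Genes expressed by 1 sex matched the labelled sex on 18 of 18 arrays. The 8-month knockout arrays stood apart, with mean correlations within their group of 0.967, 0.969 and, for replicate 3, 0.961, while the other arrays were at 0.979 or above. By replicate, the actin ratio at 8 months was 0.482, 0.448 and 0.432 in the knockout and 0.525, 0.501 and 0.510 in the wild type. These groups did not overlap, and what this does to the comparison of ages was not tested. The lowest actin ratio, 0.3885, was in replicate 1 of the 5-month knockout. Genes of cerebellum (Pcp2 at 1630, 1545 and 1476 in knockout samples, and at 1500, 1530 and 1703 in wild-type samples) and of choroid plexus were clearly present in both genotypes. Of 24 genes of cochlea and inner ear on the array, 16 were too dim to test, among them Tecta, Otoa and Slc26a5, which mark the sensory epithelium. Coch, a matrix protein of the inner ear, was above background on all 6 arrays, at 189, 190 and 179 in the knockout and 152, 172 and 172 in the wild type, and so was Otof, of hair cell synapses, at 58.8, 52.6 and 52.7 in the knockout and 49.3, 43.6 and 43.7 in the wild type. Neither passed (adjusted p 0.735 and 0.827), though their groups did not overlap.

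Ppt1 was nearly absent in the knockout. Its brightest probe set read 9.78, 13.1 and 2.36 in the 3 knockout arrays, against 623, 586 and 627 in the wild-type arrays. The knockout arrays lay at or below the level of the bacterial control probes, so the signal was at least 21.5-fold lower (log2 change −4.71 ± 0.20, adjusted p 3.04e-12, limma). Here and below a log2 change is of the signal plus 16, knockout minus wild type, ± its standard error, so the change of a dim gene is understated. Adjusted p-values are from limma over 27022 tested probe sets. It is unknown here whether these probes target the deleted stretch of Ppt1. A second of its probe sets fell by 3.88, a dimmer one fell by 1.11 (adjusted p 0.0461, lost under 18 of 31 alternative settings), and one differed by 0.20 (adjusted p 0.828). Some of the 31 settings left out a given probe set, so a call not lost was not always tested in all of them, here and below.

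At 3 months 258 of the 27022 tested probe sets passed an adjusted p of 0.05, which is 0.955%. Of these, 184 (0.681%) were higher in the knockout and stand for 128 named genes, and 74 (0.274%) were lower and stand for 56 named genes. The increases were the larger ones. The median change was 0.87 among the higher and −0.51 among the lower probe sets, and 73 of the higher but 19 of the lower changed by 2-fold or more. For all 258 probe sets every knockout array lay on 1 side of every wild-type array, while over all tested probe sets this held for 18.4% (9.83% above and 8.61% below). The count of calls depended on single arrays: it was 123, 128 and 154 without knockout replicates 1, 2 and 3 of 3 months, 127 and 153 without wild-type replicates 2 and 3 of 3 months, and 441 without replicate 3 of the 8-month knockout. Without replicate 3 of the 8-month knockout all 258 still passed.

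**Figure D1:**
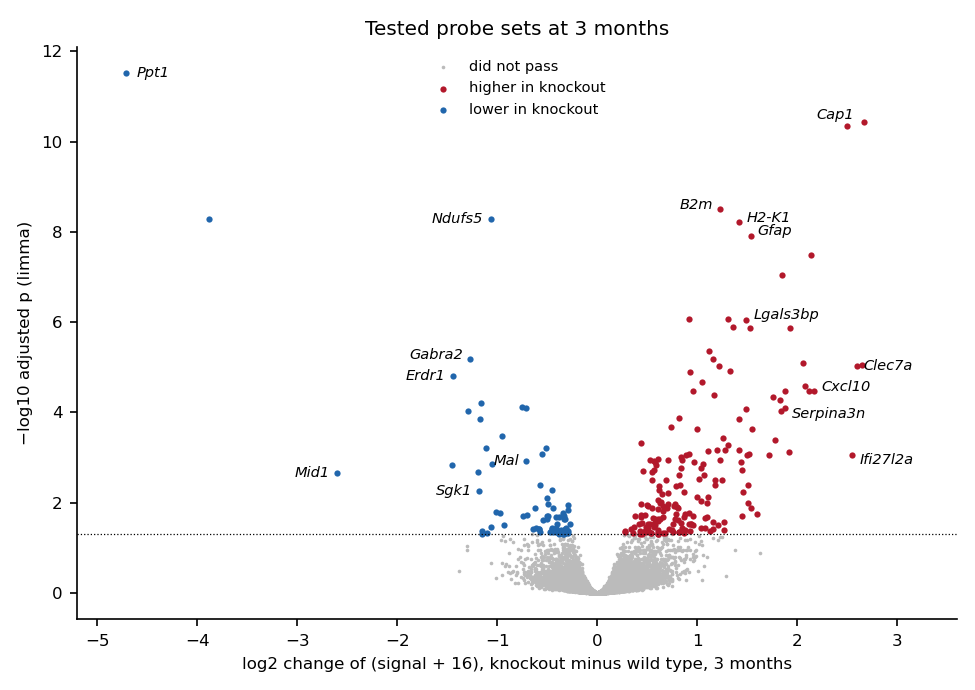
Each point is a tested probe set at 3 months, placed by its log2 change of signal plus 16, knockout minus wild type (horizontal), and the negative log10 of its adjusted p from limma (vertical, dotted line at 0.05). Red points passed and were higher in the knockout (184), blue points passed and were lower (74), grey points did not pass. Ppt1 stands apart at a change of −4.71, and among named genes Cap1, Clec7a and Ifi27l2a lie farthest to the right.

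Among the gene lists examined, the interferon-stimulated genes held the most increases. The lists were chosen with earlier results of these data known. Shares of all genes are therefore given for scale and are no independent test, here and below. Of 40 such genes measured, 23 rose and 0 fell, with a median change of 0.89, where over all 12496 genes tested (by the brightest probe set of each) 0.912% rose, 0.336% fell and the median was 0.0016. The 23 became 14, 15 and 15 without knockout replicates 1, 2 and 3, 15 without wild-type replicate 2 and 13 with a filter of the lowest 60%, which leaves fewer of them tested. In 32 of the 40 every knockout array lay above every wild-type array, against 10.6% of all genes. The summed signal of the 50 listed genes on the array was 5933 to 6130 in the knockout and 2510 to 3092 in the wild type. Whether more cells carried these transcripts or each cell carried more of them cannot be told apart in such bulk RNA, here and for every gene group below.

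Ifit1, which binds viral RNA, read 115, 135 and 144 in the knockout and 29.5, 23.7 and 27.0 in the wild type, a log2 change of 1.78 ± 0.26 (adjusted p 0.000411). Its relative Ifit3 read 464, 375 and 424 in the knockout and 118, 116 and 173 in the wild type (1.55 ± 0.22, adjusted p 0.000238). Neither gene had overlapping groups. Ifi27l2a, an interferon-induced protein of a family of similar genes whose probes may cross-hybridise, showed the largest change of the list, with 121, 135 and 144 in the knockout and 3.44, 6.03 and 22.2 in the wild type (2.55 ± 0.40, adjusted p 0.000885). As 2 of its 3 wild-type arrays were at background, the size of that change is uncertain. Among the guanylate-binding proteins, GTPases that attack intracellular microbes, Gbp2 rose by 1.49 and Gbp6 by 1.83. Gbp6 read 121, 132 and 143 in the knockout and 20.3, 28.9 and 27.8 in the wild type by its brightest probe set, so all knockout arrays were several times brighter than any wild-type array.

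Oasl2 of the oligoadenylate synthase family rose by 1.72 ± 0.27, Usp18, the protease that removes ISG15 from proteins, by 1.45 ± 0.24, and Rtp4 by 1.51 ± 0.23. Ifitm3, a membrane protein that blocks entry of viruses, was among the brightest, at 811, 775 and 823 in the knockout and 414, 294 and 252 in the wild type (1.31 ± 0.12, adjusted p 8.48e-07). Lgals3bp, a secreted glycoprotein that binds galectin-3, rose by 1.49 ± 0.14 and Ifi27 by 1.16 ± 0.12. The GTPase Iigp1 rose by 1.10 ± 0.24, but its adjusted p of 0.0212 was lost under 6 of 31 alternatives. Of 23 measured genes of interferon signalling and nucleic acid sensing, which act upstream, 1 rose (5 with array weights) and 0 fell, with a median of 0.24. Of the 23, 19 changes were positive and 11 genes had every knockout array above every wild-type array, against 10.6% of all genes. The gene that rose was Irf9, the DNA-binding part of the complex that turns on interferon targets, at 144, 139 and 151 in the knockout and 65.6, 67.6 and 65.2 in the wild type (0.97 ± 0.16, adjusted p 0.00128).

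The promoters of some interferon-stimulated genes are shown because they hold the repeat that IRF proteins bind. Promoter windows of 250 bases before to 50 bases after the RefSeq start (build GRCm38.p6) were searched for GAAANNGAAA on both strands, which reads TTTCNNTTTC on the other. The 6 genes are on the list, rose and held a match before the start, and they were picked for large changes after their values were seen. Not every gene of the list that rose and held a match was considered for display. A gene with a larger change than some of those shown may therefore be missing. Each run is given 5′ to 3′ in the direction of the gene, all of it before the start, with the match in capitals. They lie at chr19:34640770-34640828 on the plus strand for Ifit1, chr19:34583358-34583431 plus for Ifit3, chr3:142620589-142620628 plus for Gbp2, chr3:142530268-142530307 plus for Gbp7, chr12:26456548-26456587 minus for Rsad2 and chr8:71537572-71537617 minus for Bst2.
Ifit1: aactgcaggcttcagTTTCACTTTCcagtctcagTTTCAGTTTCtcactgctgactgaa
Ifit3: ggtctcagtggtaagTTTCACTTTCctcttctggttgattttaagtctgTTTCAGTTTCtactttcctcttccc
Gbp2: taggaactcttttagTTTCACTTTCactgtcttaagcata
Gbp7: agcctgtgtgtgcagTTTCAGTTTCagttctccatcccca
Rsad2: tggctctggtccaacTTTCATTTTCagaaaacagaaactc
Bst2: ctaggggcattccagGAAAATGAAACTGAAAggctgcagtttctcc

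Ifit1 and Ifit3 each held 2 matches, the nearer at 85 and 122 bases before the start, and Bst2 held 2 that overlap. Gbp2 held 1 match at 59 bases and Gbp7 1 at 53 bases before the start. Gbp7 rose by 1.18, Rsad2, an antiviral enzyme, by 1.16 and Bst2, which tethers budding viruses, by 1.03 on the log2 scale. Of the interferon-stimulated genes that rose, 17 had a window and 11 held the match (64.7%). Of those that did not pass, 5 of 14 held it (35.7%). Among genes that rose and are not on the list 9 of 87 did (10.3%), among genes that fell 2 of 46 (4.35%), and among all tested genes 364 of 10097 (3.61%). Over all 32851 windows the share was 3.44%. A match describes letters in a window and is not evidence of a bound factor.

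Genes of antigen presentation were also higher. Of 13 measured genes of MHC class I and its processing 5 rose and 1 fell, with a median of 0.58; 8 rose with array weights. B2m, the light chain of class I molecules, read 2708, 2836 and 2870 in the knockout and 1285, 1105 and 1177 in the wild type (1.23 ± 0.08, adjusted p 3.14e-09). The heavy chain H2-K1 read 727, 687 and 815 in the knockout and 265, 274 and 261 in the wild type (1.42 ± 0.10), and H2-D1, a near copy whose probes may share signal with it, rose by 0.93 ± 0.10. Tapbp, which loads peptides on class I, rose by 0.58, and Psme1, a proteasome activator, by 0.36 (adjusted p 0.0476, lost under 18 of 31 alternatives). The member that fell was Calr, a chaperone of the endoplasmic reticulum, by 0.31 (adjusted p 0.0406, lost under 11 of 31). Of 6 class II genes 2 rose: H2-Aa, a chain of the class II molecule, by 1.02 ± 0.18, and Ctss, the protease that trims its invariant chain, by 1.05 ± 0.12.

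**Figure D2:**
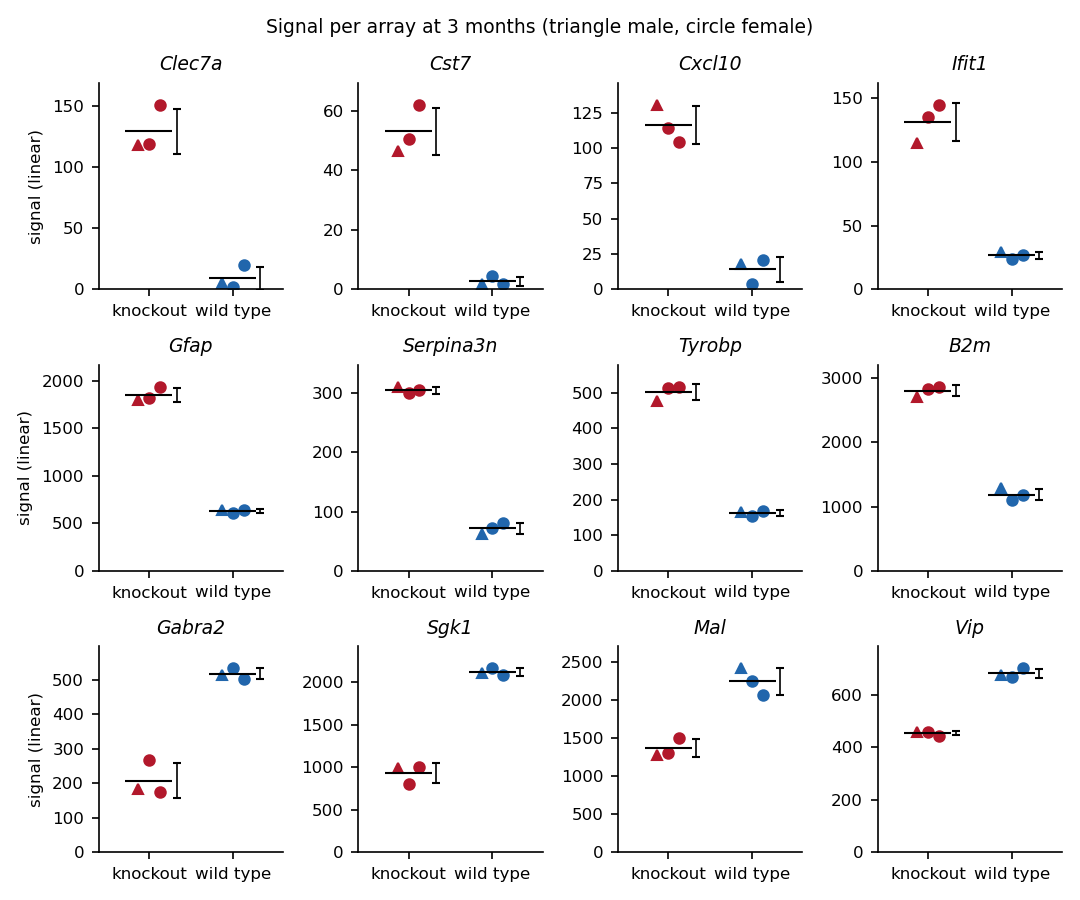
Signal per array (vertical, linear, from 0) of 12 genes at 3 months, with the 3 knockout arrays in red on the left and the 3 wild-type arrays in blue on the right of each panel; triangles are males, circles females, lines the group means and bars the SD (n = 3 each). In Clec7a, Cst7, Cxcl10, Ifit1, Gfap, Serpina3n, Tyrobp and B2m all knockout arrays are above all wild-type arrays, and in Gabra2, Sgk1, Mal and Vip all are below.

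Microglial genes differed by kind. Of 24 genes of disease-associated microglia 13 rose and 0 fell, with a median of 0.83, and of 24 general genes of microglia and macrophages 7 rose and 0 fell, with a median of 0.50. Of 14 homeostatic microglial genes 1 rose and 0 fell, with a median of 0.04. The summed signal of the general list was 2976 to 3268 in the knockout and 1628 to 1729 in the wild type, while that of the homeostatic list was 4921 to 5191 in the knockout and 4832 to 5560 in the wild type.

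Clec7a, the receptor for fungal glucans also named dectin, read 119, 119 and 151 in the knockout and 5.13, 2.15 and 19.8 in the wild type (2.60 ± 0.28, adjusted p 9.17e-06). Cst7, an inhibitor of lysosomal cathepsins, read 46.7, 50.7 and 62.0 in the knockout and 1.98, 4.42 and 1.68 in the wild type, all 3 wild-type arrays being at background, which makes it at least 2.39-fold higher (adjusted p 3.39e-05). For both genes the wild type was barely or not measurable. Tyrobp, the adaptor through which Trem2 signals, read 476, 512 and 517 in the knockout and 167, 154 and 169 in the wild type (1.53 ± 0.15, adjusted p 1.33e-06). Cd52, a small glycoprotein of the leukocyte surface, rose by 1.76 ± 0.22. The lysozymes Lyz1 and Lyz2, near copies whose probes may cross-hybridise, rose by 1.92 ± 0.29 and 1.51 ± 0.27.

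Lgals3, or galectin-3, varied among knockout samples, with 58.5, 125 and 107 in the knockout and 25.2, 25.3 and 16.9 in the wild type (1.51 ± 0.29, adjusted p 0.0101, lost under 6 of 31 alternatives). Cd68, a lysosomal glycoprotein of phagocytes, rose by 1.11 ± 0.21 (adjusted p 0.00749, lost under 3 of 31), and the tetraspanin Cd9 rose by 0.82 ± 0.11. Among the general genes Mpeg1, a pore-forming protein of macrophages, read 334, 404 and 386 in the knockout and 83.1, 90.7 and 85.0 in the wild type (1.93 ± 0.18, adjusted p 1.33e-06). Aif1, which encodes the microglial marker Iba1, rose by 1.42 ± 0.19, Ly86, a surface partner of a Toll-like receptor relative, by 1.36 ± 0.13, Ptprc, the leukocyte phosphatase CD45, by 1.20 ± 0.18, the Fc receptor chain Fcer1g by 1.04 ± 0.17 and Laptm5, a lysosomal membrane protein, by 0.71 ± 0.11. All of these had groups that did not overlap, but the other 3 tested probe sets of Laptm5 overlapped, with changes of −0.03 to 0.26.

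Of the 14 homeostatic genes 4 lay above and 1 below every wild-type array, against 10.6% and 10.2% of all genes, and the other genes overlapped. Csf1r, the receptor for the growth factor that microglia live on, read 1325, 1435 and 1414 in the knockout and 1372, 1334 and 1319 in the wild type. P2ry12, a purine receptor of resting microglia, read 165, 150 and 163 in the knockout and 215, 197 and 156 in the wild type, and Tmem119 read 116, 88.9 and 105 in the knockout and 116, 86.4 and 108 in the wild type. The groups overlapped for these 3 genes. The member that rose was Fcrls, an Fc receptor-like protein, by 0.79 ± 0.16 (adjusted p 0.0181, lost under 4 of 31).

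All chains of the complement recognition protein C1q rose. C1qa read 729, 759 and 811 in the knockout and 334, 366 and 295 in the wild type (1.17 ± 0.14), C1qb rose by 1.00 ± 0.14 and C1qc by 1.07 ± 0.18. They were the 3 of 10 complement genes that passed (5 with array weights), and the list had a median of 0.51. Among 9 chemokine genes Cxcl10, an interferon-induced ligand for T cells, was the 1 that passed, at 130, 114 and 104 in the knockout and 17.8, 4.02 and 21.0 in the wild type (2.17 ± 0.26, adjusted p 3.39e-05). Of 14 lymphocyte genes 13 were too dim to test. Cd3e, of the T cell receptor complex, read 5.60, 22.3 and 15.3 in the knockout and 16.1, 3.68 and 4.88 in the wild type, which overlapped, while Cd8a, of cytotoxic T cells, read 40.5, 23.6 and 43.7 in the knockout and 21.8, 8.82 and 4.49 in the wild type, which did not. The summed signal of the lymphocyte list was 452 to 474 in the knockout and 424 to 511 in the wild type. The summed signal of 8 blood genes was 226 to 321 in the knockout and 222 to 370 in the wild type.

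Part of the reactive astrocyte genes rose, while 17 did not pass. Of 24 reactive astrocyte genes 7 rose and 0 fell, with a median of 0.51. The count that rose was 11 with array weights, 5 without the variance trend and at fewest 5 with 1 array left out. Of the 7, Cxcl10, Iigp1 and H2-D1 also stand on the chemokine, interferon and MHC lists. Gfap read 1796, 1823 and 1939 in the knockout and 640, 606 and 640 in the wild type by its brightest probe set (1.54 ± 0.11, adjusted p 1.23e-08), and another probe set rose by 1.85. Serpina3n, a secreted protease inhibitor, read 311, 299 and 304 in the knockout and 61.9, 73.0 and 80.3 in the wild type (1.88 ± 0.24, adjusted p 7.81e-05). Osmr, the receptor for oncostatin M, rose by 1.08 ± 0.25 and Lgals1, or galectin-1, by 0.57 ± 0.09. How often the call of Osmr was lost under the alternatives was not tallied. Of 23 identity genes 1 rose and 1 fell: Aqp4, the water channel of astrocyte endfeet, rose by 0.51 ± 0.10 (lost under 5 of 31 alternatives) and Mt3, a brain metallothionein, fell by 0.33 (adjusted p 0.0420, lost under 17 of 31). The glutamate transporters Slc1a2 and Slc1a3 had overlapping groups. The median of the identity list was −0.04 and became 0.04 over all probe sets.

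Lysosomal genes moved mainly among the cathepsins. Of 14 cathepsins and cystatins 7 rose (4 without the variance trend) and 0 fell, with a median of 0.38, and all 14 changes were positive. Besides Cst7 and Ctss these were the proteases Ctsh (0.91 ± 0.14), Ctsz (0.84 ± 0.13), Ctsc (0.66 ± 0.14, lost under 6 of 31), Ctsd (0.62 ± 0.11, lost under 1 of 31) and Ctso. Lost calls were not tallied for Ctso. Ctsd, whose loss causes another ceroid lipofuscinosis, read 1342, 1390 and 1427 in the knockout and 883, 908 and 906 in the wild type. Of 25 other lysosomal hydrolases 0 rose and 0 fell in limma, although 22 of 25 changes were positive, the median was 0.24 and 13 had every knockout array above every wild-type array, against 10.6% of all genes. The largest were Naglu, which degrades heparan sulfate, at 0.44 ± 0.19 (adjusted p 0.425), and Gusb, the beta-glucuronidase, at 0.41 ± 0.17 (adjusted p 0.383). Under the other settings between 0 and 2 of them rose. Of 24 lysosomal membrane and storage disease genes 4 rose: Cd68, Lamp2 at 0.85 ± 0.14, Grn, or progranulin, at 0.61 ± 0.10, and Laptm5.

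Of 26 other enzymes that add palmitate to proteins or take it off 0 rose and 1 fell. Zdhhc5, a palmitoyl transferase of the plasma membrane, read 103, 119 and 92.5 in the knockout and 166, 167 and 182 in the wild type (−0.64 ± 0.15, adjusted p 0.0376). Its other probe set changed by −0.22 (adjusted p 0.749), and the call was lost under 9 of 31 alternatives. Of 17 genes of cholesterol synthesis 0 rose and 0 fell, with a median of 0.09, and of 19 genes of lipid transport 0 rose (6 with array weights) and 0 fell, with a median of 0.12. Of these 19, 8 had every knockout array above every wild-type array, against 10.6% of all genes. Abca1, the cholesterol exporter, had 605, 671 and 630 in the knockout and 432, 475 and 469 in the wild type, which did not overlap, with an adjusted p of 0.222. Its other probe sets changed by 0.67 and 0.72 without overlap and did not pass in limma either (adjusted p 0.0561 and 0.143).

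**Figure D3:**
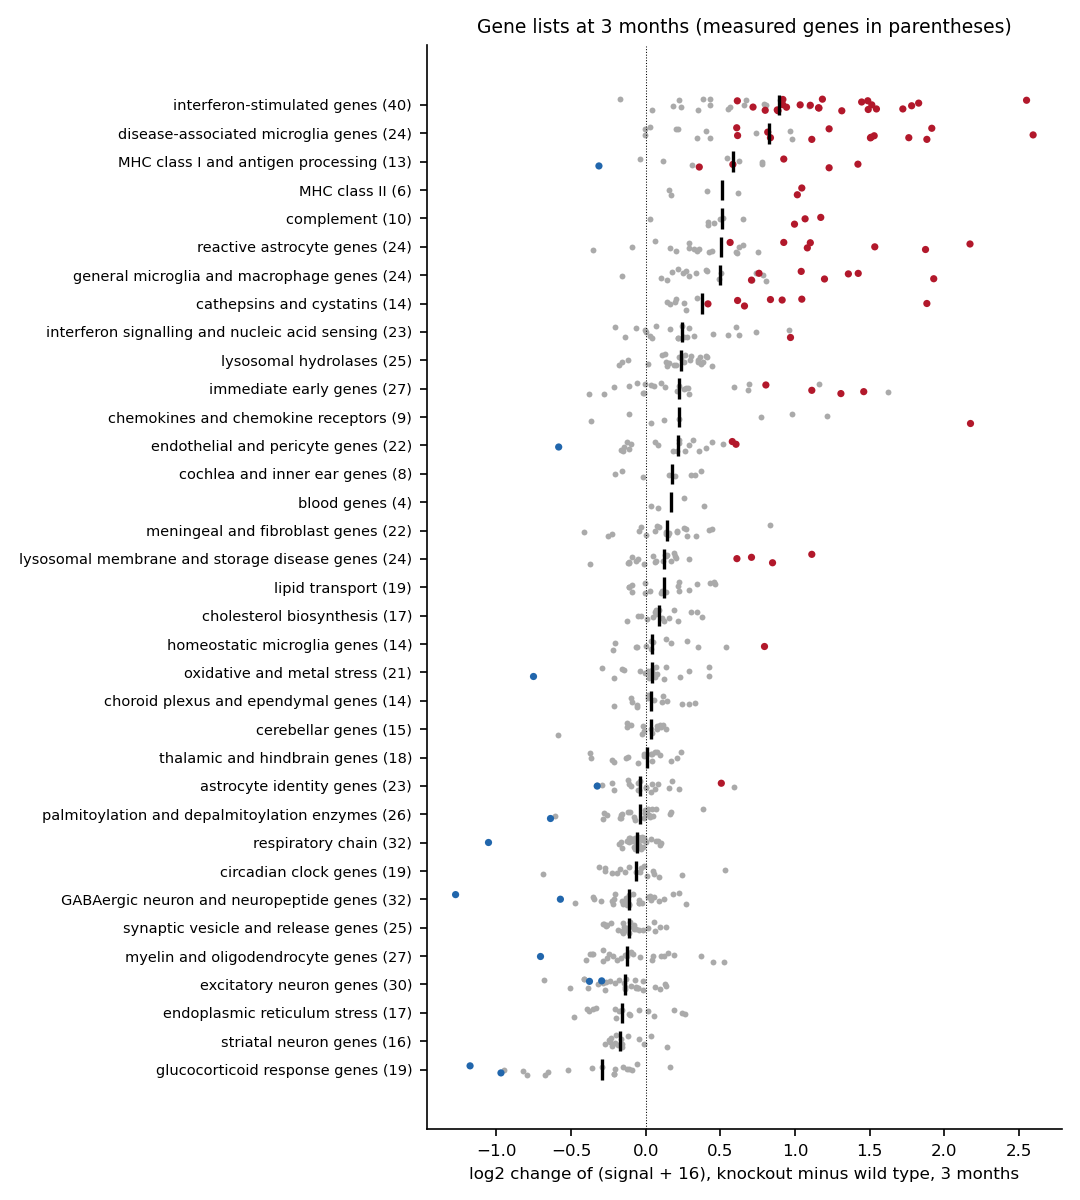
Log2 change of signal plus 16 at 3 months, knockout minus wild type (horizontal), of every measured gene in each list of at least 4 (rows, sorted by median, with the number of measured genes in parentheses). Red genes rose, blue genes fell, grey genes did not pass, and black bars are the list medians, from 0.89 for interferon-stimulated genes to −0.30 for glucocorticoid response genes.

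Few neuronal genes passed, but several lists leaned lower. Of 30 excitatory neuron genes 0 rose and 2 fell (0 to 5 under other settings), with a median of −0.14, and 13 lay below every wild-type array, against 10.2% of all genes. These were Arpp21, a phosphoprotein regulated by cyclic AMP, by 0.29 ± 0.06 (lost under 5 of 31 alternatives) and Bcl11b, a transcription factor of deep-layer neurons, by 0.38 ± 0.09 (adjusted p 0.0456, lost under 17 of 31). Each passed at 1 probe set, of 5 and 4 tested. Camk2a had a change of −0.68, but its groups overlapped, with 1266, 1314 and 1293 in the knockout and 2807, 2453 and 1308 in the wild type. Of 25 genes of synaptic vesicles and release 0 rose and 0 fell in limma, with a median of −0.12 and between 0 and 4 lower under other settings. Striatal genes (16, median −0.17), thalamic and hindbrain genes (18, median 0.01, or −0.02 after median centring) and cerebellar genes (15, median 0.03) held 0 members that passed. Every knockout array lay below every wild-type array for 10 of the 25 synaptic, 7 of the 16 striatal and 8 of the 32 GABAergic genes, against 10.2% of all genes. The summed signal did not overlap for these lists: it was 21390 to 22320 in the knockout and 23920 to 25560 in the wild type for excitatory genes, 25080 to 25360 in the knockout and 27410 to 27880 in the wild type for GABAergic genes, 52900 to 57370 in the knockout and 58170 to 60090 in the wild type for synaptic genes, and 7451 to 7775 in the knockout and 8054 to 8839 in the wild type for striatal genes. Lists of other kinds leaned lower too. All knockout arrays lay below all wild-type arrays for 9 of 27 myelin, 7 of 26 palmitoylation and 9 of 19 glucocorticoid response genes. The reverse held for 2, 1 and 0 of them, where over all genes 10.2% lay below and 10.6% above. Summed signals were 38030 to 42010 in the knockout and 42130 to 46000 in the wild type for myelin genes. For palmitoylation enzymes they were 8215 to 8382 in the knockout and 8828 to 8852 in the wild type. No test was made of these sums.

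Of 32 genes of GABAergic neurons and neuropeptides 0 rose and 2 fell (2 to 5 under other settings), with a median of −0.11. Gabra2, a subunit of the GABA-A receptor, read 182, 267 and 174 in the knockout and 515, 533 and 502 in the wild type (−1.27 ± 0.13, adjusted p 6.63e-06), and all of its tested probe sets fell. Vip, the vasoactive intestinal peptide of a class of interneurons, read 458, 457 and 444 in the knockout and 675, 668 and 700 in the wild type (−0.57 ± 0.10, adjusted p 0.00398). For both genes the knockout arrays were below every wild-type array. The enzymes of GABA synthesis were close: Gad1 read 3426, 3342 and 3199 in the knockout and 3399, 3551 and 3350 in the wild type, with overlapping groups. Homer1, a scaffold of the postsynapse, fell by 0.55 ± 0.08 at 1 of its 6 probe sets tested, while the others had −1.31 to −0.28 and did not pass.

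Of 27 genes of myelin and oligodendrocytes 0 rose and 1 fell (1 to 4 under other settings), with a median of −0.13. Mal, a proteolipid of compact myelin, read 1287, 1313 and 1509 in the knockout and 2423, 2254 and 2071 in the wild type (−0.71 ± 0.11, adjusted p 0.00121), and its other probe set fell by 0.62. Mbp, the myelin basic protein, had a change of −0.13 that did not pass. Of 22 genes of endothelium and pericytes 2 rose and 1 fell: the adhesion molecule Vcam1 rose by 0.58 ± 0.13, the tight junction protein Cldn5 by 0.61 ± 0.13, and Slc2a1, the glucose transporter of the blood-brain barrier, fell by 0.58 ± 0.14. Slc2a1 read 1141, 1095 and 1141 in the knockout and 1574, 1627 and 1896 in the wild type. The calls of Vcam1, Cldn5 and Slc2a1 were lost under 6, 7 and 14 of 31 alternatives. Meningeal and fibroblast genes (22, median 0.14) and choroid plexus genes (14, median 0.04) held 0 members that passed.

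Some early response genes rose and some glucocorticoid targets fell. Of 27 immediate early genes 4 rose and 0 fell, with a median of 0.22, and 2 rose without replicate 1 of the 3-month wild type. The transcription factor Fos read 1077, 707 and 853 in the knockout and 246, 329 and 348 in the wild type (1.46 ± 0.27, adjusted p 0.00570, lost under 3 of 31 alternatives), and Btg2, which slows cell division, read 296, 241 and 249 in the knockout and 116, 98.9 and 76.2 in the wild type (1.31 ± 0.19, adjusted p 0.000528). The other probe set of Btg2 had 0.54 (adjusted p 0.295) and overlapping groups. The phosphatase Dusp1 rose by 1.11 ± 0.17 and Ier2 by 0.81 ± 0.16, the second of which was lost under 5 of 31. Arc, a gene induced by neuronal activity, had a change of 1.63 that did not pass. Of 19 glucocorticoid response genes 0 rose and 2 fell, with a median of −0.30, and 1 of 19 changes was positive. Sgk1, a kinase induced by glucocorticoids, read 994, 800 and 1006 in the knockout and 2111, 2167 and 2082 in the wild type (−1.18 ± 0.22, adjusted p 0.00558, lost under 3 of 31), and Tsc22d3, the glucocorticoid-induced leucine zipper, read 453, 315 and 371 in the knockout and 679, 772 and 808 in the wild type (−0.97 ± 0.20, adjusted p 0.0170, lost under 6 of 31). The other probe sets of Tsc22d3 had −0.72 and −0.16 and did not pass. The number of the 19 that fell ranged from 0 to 6 over the alternatives. Of 19 circadian clock genes 0 rose and 0 fell, and Per2, the largest change at −0.69 ± 0.19, had an adjusted p of 0.112.

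Several of the largest changes belonged to genes outside the lists above, and some genes that passed were neighbours of Ppt1 in the gene order. Cap1, which binds actin and lies next to Ppt1 in the RefSeq gene order, read 1261, 1282 and 1387 in the knockout and 189, 147 and 253 in the wild type (2.67 ± 0.13, adjusted p 3.66e-11), and its other probe set rose by 2.50. Ndufs5, part of the first complex of the respiratory chain and 16 genes from Ppt1, read 1183, 1115 and 1254 in the knockout and 2376, 2469 and 2611 in the wild type (−1.06 ± 0.07, adjusted p 5.26e-09). It was the 1 of 32 respiratory chain genes that passed, and the median of that list was −0.06. Within 50 genes to either side of Ppt1, 58 were measured and 5 passed (8.62%, against 1.25% of all genes). The others were Mfsd2a, a lipid transporter of the blood-brain barrier, which fell by 0.93 ± 0.21, Hpcal4, a neuronal calcium sensor, which fell by 0.33 ± 0.07, and Slc2a1. The calls of Mfsd2a and Hpcal4 were lost under 8 and 5 of 31 alternatives. The median change of the 58 genes was −0.0055. Also in this window are Akirin1, 17 genes away, and Pou3f1, 22 genes away, whose brightest probe sets did not pass (0.12 and 0.06) while another probe set of each fell.

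Mid1, a ubiquitin ligase on microtubules, showed the largest decrease after Ppt1, at 75.7, 79.9 and 68.5 in the knockout and 396, 674 and 574 in the wild type (−2.61 ± 0.44, adjusted p 0.00216, lost under 1 of 31). Erdr1, which lies near Mid1 on the sex chromosomes, read 1638, 1517 and 1801 in the knockout and 5775, 3551 and 4475 in the wild type (−1.44 ± 0.16, adjusted p 1.56e-05), while its other probe set changed by −0.41 and did not pass. Wdfy1, a protein of early endosomes, fell by 1.30 ± 0.17, with all 3 of its tested probe sets passing. Nnt, a mitochondrial transhydrogenase that makes NADPH, read 134, 162 and 115 in the knockout and 268, 287 and 279 in the wild type (−0.95 ± 0.14), and its other tested probe set fell by 0.75. For some genes a single probe set passed and the others did not. Tmod2, a cap of actin filaments, fell by 1.20 ± 0.20 at 1 of 6 tested probe sets, the ubiquitin ligase Mkrn1 fell by 0.71 ± 0.09 at 1 of 6, and Akirin1, of the nucleus, fell by 0.74 ± 0.16 at 1 of 2. Pou3f1, a transcription factor, fell by 0.61 ± 0.14 at 1 of 2, and the receptor phosphatase Ptprj fell by 0.54 ± 0.12 at 1 of 3.

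Fst, or follistatin, which binds activins, fell by 1.01 ± 0.21. Gpd1 of glycerol phosphate metabolism fell by 0.51 ± 0.11 and Rnaseh2c, a subunit of an enzyme that cuts RNA paired with DNA, by 0.50 ± 0.10, each at 1 of 3 tested probe sets. The calls of Fst, Gpd1, Rnaseh2c, Pou3f1 and Ptprj were lost under 4 to 7 of 31 alternatives. Rhoj, a small GTPase, rose by 1.54 ± 0.31 from a dim level, with 48.0, 75.8 and 70.2 in the knockout and 10.0, 10.4 and 13.8 in the wild type, and was lost under 5 of 31.

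The next question was whether the genes changed at 3 months were also changed in the older mice, whose arrays are separate samples. Of the 184 probe sets higher at 3 months, 143 also passed as higher at 5 months, where 1.64% of all probe sets did (2.2% in either direction), and 141 at 8 months, where 5.74% did (11.6% in either direction). Of the 74 lower, 30 also passed as lower at 5 months (0.566% of all) and 35 at 8 months (5.91% of all), while 4 passed as higher at 8 months. Without replicate 3 of the 8-month knockout the 8-month counts were 139 and 37. At both later ages 127 of the higher and 26 of the lower passed the same way, and 27 and 31 passed at neither. Since the genes were picked by their 3-month p, a smaller change later is no difference between ages by itself. The difference was therefore tested. It holds the same 3-month estimate, so the picking can also make a later loss or reversal look larger.

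Between 5 and 3 months the knockout effect differed at 0 probe sets in limma. The smallest adjusted p was 0.100, for Gfap, and 1611 had an unadjusted p under 0.05. Other settings gave 0 to 31, with 2 and 24 without replicates 1 and 3 of the 8-month knockout. Between 8 and 3 months the knockout effect differed at 282 probe sets (1.04%), 194 (0.718%) more positive and 88 (0.326%) more negative at 8 months. This count ranged from 44 without replicate 2 of the 3-month wild type to 1970 without replicate 3 of the 8-month knockout, and was 0 without the variance trend. The 8-month knockout had 2 males and 1 female, unlike the other groups.

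The groups of genes took different courses by their medians. Interferon-stimulated genes had medians of 0.89, 0.93 and 0.65 at 3, 5 and 8 months, with 23, 24 and 20 of 40 rising. Disease-associated microglial genes had 0.83, 1.07 and 1.32, with 13, 20 and 21 of 24 rising, and reactive astrocyte genes 0.51, 0.97 and 1.31, with 7, 16 and 19 of 24 rising. Complement had 0.51, 0.98 and 1.42. Over all genes 0.912%, 2.31% and 6.97% rose at these ages, so the later counts stand against a wider background. Glucocorticoid response genes had medians of −0.30, 0.10 and 1.02, and 14 of 19 rose at 8 months. Cholesterol synthesis had 0.09, −0.01 and −0.49, and 11 of 17 fell at 8 months, against 5.95% of all genes. No test was made of the difference between these medians.

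**Figure D4:**
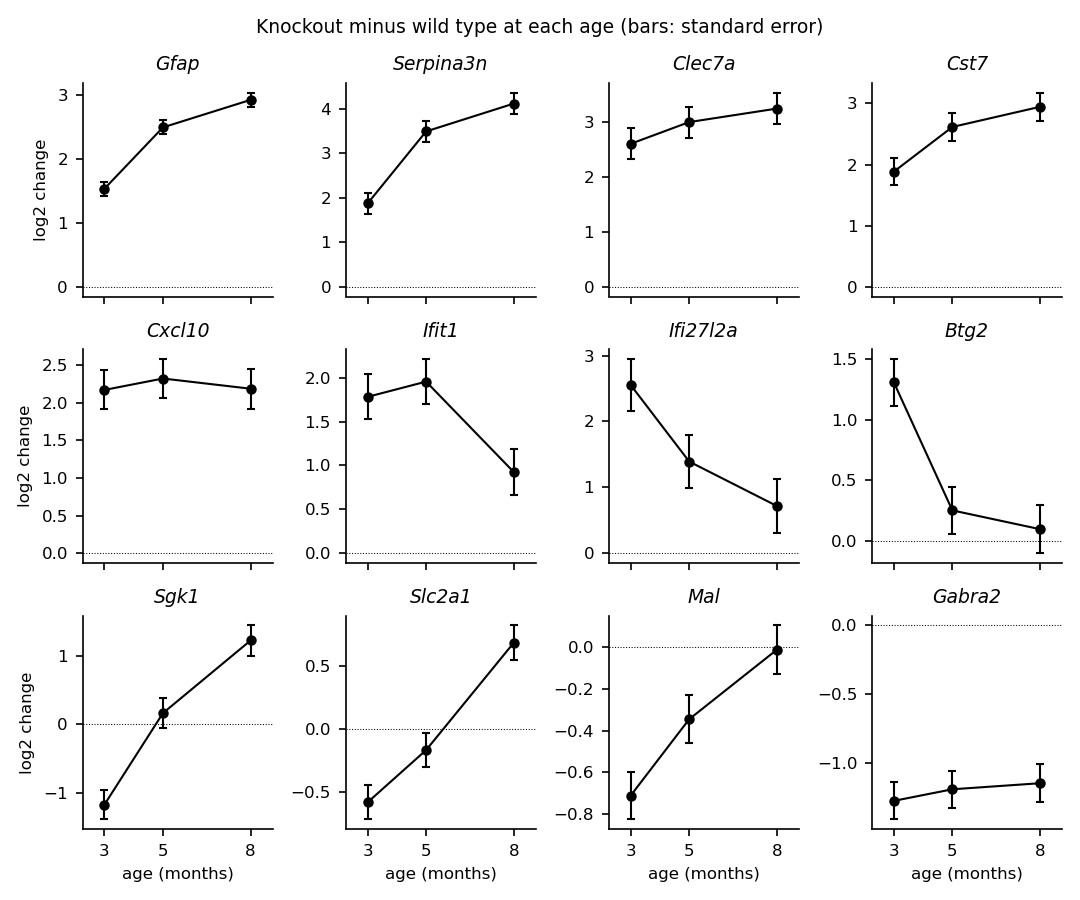
Log2 change of signal plus 16, knockout minus wild type (vertical, own scale per panel), at 3, 5 and 8 months (horizontal) for 12 genes, with standard errors of the fit. Gfap and Serpina3n are farther above 0 at 8 than at 3 months, Cxcl10 and Gabra2 are close at all ages, Ifi27l2a and Btg2 are largest at 3 months, and Sgk1 and Slc2a1 are below 0 at 3 months and above 0 at 8 months.

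Gfap had changes of 1.54, 2.50 and 2.93 at 3, 5 and 8 months, and its effect at 8 months exceeded that at 3 months by 1.39 ± 0.16 (adjusted p 0.000379). Serpina3n had 1.88, 3.50 and 4.12, with a difference of 2.25 ± 0.34 between 8 and 3 months (adjusted p 0.00376). The calls of both differences were lost under 1 alternative, the fit without the variance trend. Clec7a had 2.60, 2.99 and 3.24 and Cst7 1.88, 2.62 and 2.95, and for neither did the difference pass (adjusted p 0.498 and 0.114). Cxcl10 had 2.17, 2.33 and 2.19, B2m 1.23, 1.26 and 1.20, and Lgals3bp 1.49, 1.74 and 1.64, so these were close to their full size at the youngest age, with differences between 8 and 3 months of 0.02 ± 0.37, −0.03 and 0.15 that did not pass.

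Other genes passed at 3 months and not at 8 months. Ifi27l2a had 2.55, 1.39 and 0.71 and passed at 3 months only, though the difference between 8 and 3 months did not pass (−1.84, adjusted p 0.119). Btg2 had 1.31, 0.25 and 0.10 at the probe set that passed, and its difference did pass (−1.21 ± 0.27, adjusted p 0.0358). Serpinb1a, an inhibitor of neutrophil proteases, rose by 1.10 at 3 months, also rose at 5 months, had −0.60 at 8 months and a difference of −1.70 (adjusted p 0.0112). Its other probe set changed by 0.23 at 3 months and did not pass. Mrps18b, a protein of the mitochondrial ribosome, rose by 0.55 at 3 months and had 0.05 and −0.02 later, and Enc1, an actin-binding protein of neurons, fell by 0.34 and had −0.13 and −0.08 later; for these 2 the difference did not pass. Mal had −0.71, −0.35 and −0.01 by its brighter probe set, with a difference of 0.70 (adjusted p 0.0403, lost under 19 of 30 alternatives).

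Some genes fell at 3 months and rose at 8 months. Sgk1 had −1.18, 0.16 and 1.23, with a difference between 8 and 3 months of 2.41 ± 0.31 (adjusted p 0.00171). Slc2a1 had −0.58, −0.17 and 0.68 (difference 1.27, adjusted p 0.00376), and Mfsd2a −0.93, −0.31 and 0.83 (difference 1.76, adjusted p 0.00705). For these 3 genes the knockout was below the wild type at 3 months and above it at 8 months, each passing at both ages. Gabra2 (−1.27, −1.19 and −1.15), Nnt, Wdfy1, Erdr1, Ndufs5 and Mkrn1 instead passed as lower at all 3 ages. The labels give no strain, so whether knockout and wild type share a strain is unknown here.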

How the data were processed

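Each sample's RNA was hybridised to 1 Affymetrix mouse array. The deposited values are linear intensities (signals) per probe set. How the authors computed and scaled them is not given in the sources used here; their trimmed mean was 150 on all 18 arrays, so they were used as deposited, and array number limits the precision. The 64 control probe sets and the dimmest 40% were dropped, which left 27022. limma 3.58.1 (R 4.3.3; lmFit, then eBayes with trend; two-sided) was fitted to log2(signal + 16) of all 18 arrays with 6 groups and a sex term, with Benjamini-Hochberg adjustment over all 27022. Background was the 95th percentile of 27 bacterial control probe sets per array, and folds against a group at background are lower bounds on the scale of signal + 16.

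Probe sets with 1 symbol in the platform annotation were named (22963; 4059 were not). Gene lists use the brightest probe set, some genes stand in several lists, and lists leave out Ppt1. Named were Ppt1, the 25 largest changes each way that passed, up to 6 members of each list by p (2 by size where none passed), neighbours of Ppt1 that passed, genes whose effect differed between ages and genes passing at 3 months alone. Cell type markers were listed too. Arc, Osmr, Ctso, Gbp7, Rsad2 and Bst2 were picked after their values were seen. Members and lists were chosen with earlier results of these data known. On simulated data for the 3-month comparison over 27022 probe sets, 30%, 80% and 100% of changes of 0.5, 1 and 2 (log2) were recovered. Promoters and gene order are from RefSeq (GRCm38.p6). Alternatives were other normalizations, pseudocounts, filters, variance settings and groups, and each array left out.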

Additional observations from a re-analysis of the deposited data

Results flagged for a closer look

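The knockout effect differed between 8 and 3 months, by limma's test of the difference over 27022 probe sets, for 21 named probe sets. A positive difference (log2, 8-month minus 3-month effect) means a more positive change at 8 months. Among genes that rose at 3 months it was 2.25 for Serpina3n, 1.49 and 1.39 for the 2 probe sets of Gfap, 2.00 for Lyz2, 1.98 for Lgals3, 0.83 for Cd9, 0.89 for Aqp4, 0.81 for Ctsd and 0.69 for Cnn3, an actin-binding calponin. Among genes that fell at 3 months it was 2.41 for Sgk1, 1.92 for Gm19439, 1.29 for Tsc22d3, 1.76 for Mfsd2a, 0.70 for Mal, 0.94 for Zdhhc5, 1.27 for Slc2a1, 0.50 for Calr and 0.47 for Mt3. Abca1, which did not pass at 3 months, had 1.06. The difference was negative for Btg2 (−1.21) and Serpinb1a (−1.70), both higher at 3 months. All 21 kept their sign under the 29 or 30 alternatives run for each, and all 21 passed without replicate 3 of the 8-month knockout, but each lost its call under at least 1 alternative, the most being 19, for Mal. The difference uses the same 3-month arrays as the 3-month change.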

How the results depend on the processing

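Precision is limited by 3 arrays a group, and a probe set near background has little signal to compare. No paired analysis was possible because the labels number every sample differently, and replicate numbers here only follow record order. The 3-month count of 258 became 668 with array weights, 134 without the variance trend, 470 with only the groups compared and 453 without the 8-month arrays, and lay between 123 and 441 with 1 array left out. The fits with array weights and without the 8-month arrays held all 258 of these calls, and that without the variance trend held 127. The count for 5 minus 3 months, 0, became 6, 31 and 15 with array weights, only the groups compared and without the 8-month arrays, and was 0 to 24 with 1 array left out. The count for 8 minus 3 months, 282, became 171 with 1 probe set per gene, 1204 with array weights, 161 without a filter, 0 without the variance trend and 175 with only the groups compared, and was 44 to 1970 with 1 array left out. The cause was not tested. Ppt1 kept its call, at −4.87 to −4.53 with 1 array left out and −6.26 to −3.22 under the other settings. Of 98 named probe sets that passed, 0 turned sign, 59 passed under every alternative that tested them and 39 lost the call under at least 1. The medians of the 36 lists were also taken with quantile normalization, with median centring and over all probe sets. Of these values 27 moved from the main median by more than the SD of the list's median among the 3-month knockout arrays. Mvd and Myo15, which did not pass, turned sign with 1 array left out, between −0.0291 and 0.58 for Mvd and between −0.16 and 0.52 for Myo15 (lowest without wild-type replicates 2 and 3 of 3 months). The 8-month counts without replicate 3 of that knockout were chosen after seeing the data.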

Other observations

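Few stress genes passed at 3 months. Of 17 genes of endoplasmic reticulum stress 0 rose and 0 fell, with a median of −0.16, the lowest being Sesn2 at −0.48 and Manf, a secreted protein of stressed endoplasmic reticulum, at −0.39 ± 0.18 (adjusted p 0.466). Of 21 genes of oxidative and metal stress 0 rose and 1 fell, the transhydrogenase Nnt, with a median of 0.04, where 0.912% of all genes rose and 0.336% fell. At 8 months 11 of these 21 rose, against 6.97% of all genes.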
